A study of Mus musculus with 4 samples.

Results

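The libraries labelled striatum were compared with those labelled cortex in single-nucleus RNA-seq of the mouse brain. The comparison used 4 of the 4 libraries of the series, 2 with each region label, and its members were all genes whose striatum over cortex ratio went the same way in both virus groups. All mice were C57BL/6J males. An adeno-associated virus (AAV) was injected into the cisterna magna, the fluid space at the back of the brain, at 4 weeks of age, and brains were taken at 8 weeks. The AAV-VEGF-C virus encoded mouse VEGF-C, a growth factor of lymphatic vessels, and the AAV-CTRL virus encoded a soluble piece of the VEGF-C receptor VEGFR-3 that does not bind VEGF-C, so no library came from untouched mice. Tissue of 5 mice was pooled for each virus, and cortical and striatal areas were taken from the same mice. The AAV label therefore names the pool of mice and pairs the libraries, and there was 1 library for each region in each pool. UMIs (unique molecular identifiers, counts of captured RNA molecules) were summed per gene over all barcodes of a library and scaled to 1000000, a level called CPM here. Where 4 values follow each other, the cortex-labelled libraries come before the striatum-labelled ones and, within a label, AAV-CTRL before AAV-VEGF-C. Where 2 ratios follow each other, the AAV-CTRL pair comes first. With 1 library for each region and virus, the region label and everything that differed between the separate preparations cannot be told apart.

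Depth was similar across libraries, with 63165470 to 78332657 UMIs in 17168 to 23724 nuclei and medians of 2272 to 2873 UMIs per nucleus. Mitochondrial genes took 0.722 to 1.12% of UMIs. Any 2 libraries shared between 76 and 118 cell barcodes, at most 0.658% of a library. Malat1, a nuclear RNA, took 6.59 and 6.44% of UMIs in the cortex-labelled libraries and 4.36 and 4.86% in the striatum-labelled ones. The region labels were checked against genes of known region. The gene for the cortical glutamate transporter was lower in the striatum label, but so were 15 of 17 genes of striatal projection neurons, the cells that make up most of the striatum, and genes of the thalamus, hypothalamus and midbrain were higher. The label striatum is thus used below only as the name of 2 libraries and not as a statement of where their nuclei lay.

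The brain is built from compartments that set up separate gene programmes in the embryo. The cerebral cortex and the striatum both belong to the telencephalon, where Emx and Dlx factors act. Cortical excitatory neurons load glutamate into vesicles with Slc17a7, striatal projection neurons use GABA and carry dopamine receptors, and the thalamus, hypothalamus and midbrain behind them use Slc17a6, neuropeptides and monoamines. Astrocytes also keep regional programmes. Each nucleus preparation averages over all of these cells, and in sums over a library, fewer cells of a type and less RNA per cell cannot be told apart.

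The region labels separated the libraries more than the virus did. Across the 20829 genes with at least 50 UMIs over the 4 libraries, the median absolute log2 difference was 0.34 between region labels in either pair, against 0.10 between the AAV groups within the cortex label and 0.13 within the striatum label. More than 2-fold differences were found for 14.0 and 14.6% of genes between region labels and for 1.30 and 2.07% between AAV groups. The striatum over cortex ratio had the same direction in both pairs for 17757 genes, 85.3%, with a median gap between the pairs of 0.13 on the log2 scale. The Pearson correlation of the log2 ratios across genes was 0.84, a description only, since genes are not independent and share libraries and depth. Both striatum-labelled libraries were above both cortex-labelled ones for 55.7% of genes and below them for 21.1%.

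At least 2-fold differences in the same direction in both pairs, with counting intervals that excluded equality, were found for 1335 genes higher in the striatum label (6.41% of genes tested) and 786 genes lower (3.77%). In edgeR's quasi-likelihood test with the pool of mice as a block, 8709 genes were higher (41.8%) and 3019 lower (14.5%) at an adjusted p under 0.05, among them all 1335 and all 786 genes past the 2-fold rule. Higher calls numbered 5478 without the cortex-labelled AAV-CTRL library and 5076 without the cortex-labelled AAV-VEGF-C one, and lower calls 2007 without the latter. The split between directions rests on the scaling. The median log2 ratio over all genes was 0.19 and 0.20 in the 2 pairs when scaled to total UMIs and 0.01 and 0.01 under TMM scaling, which gave 5153 higher and 5061 lower calls and 967 genes at least 2-fold higher against 1046 lower. A gene called with a small difference is therefore read relative to that shift. Of the 351 genes of the lists below that could be tested, 35 gained or lost a call under TMM scaling and 0 turned direction. Long intergenic RNAs were past the 2-fold rule in 9.14% (higher) and 8.95% (lower) of 2068 tested, and protein-coding genes in 6.25 and 2.99% of 16715.

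**Figure D1:**
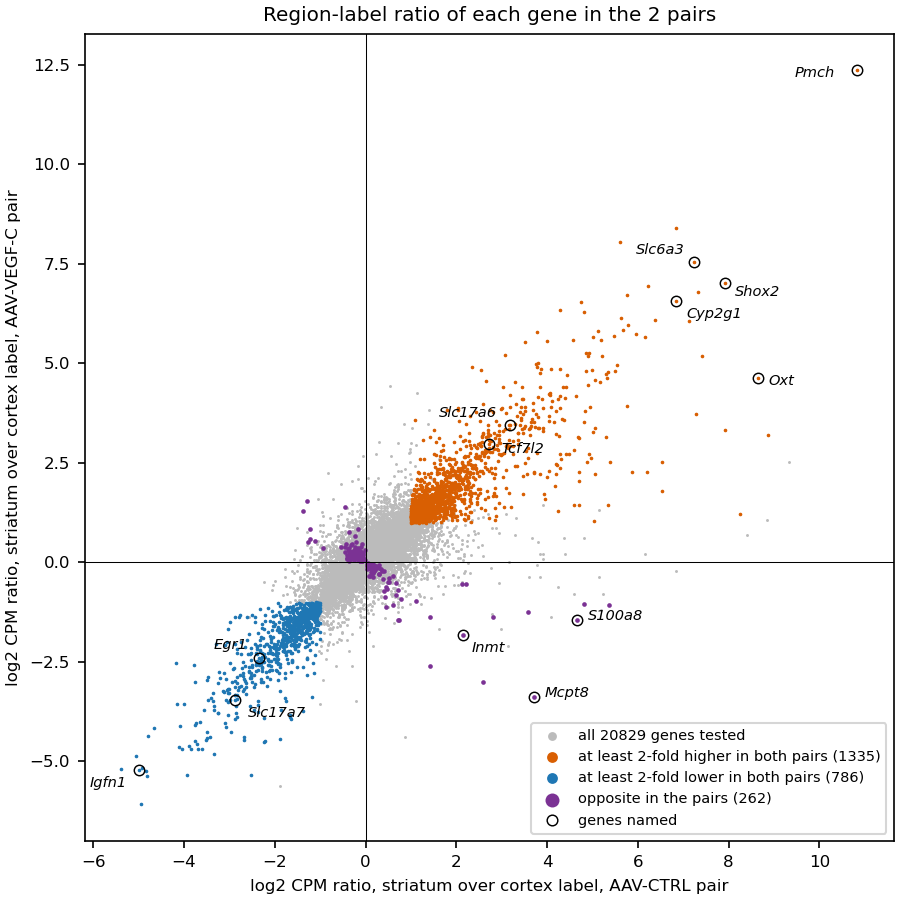
Striatum over cortex ratio (log2 of CPM) of each of 20829 genes in the AAV-CTRL pair (x axis) against the AAV-VEGF-C pair (y axis). Orange and blue points are the 1335 genes at least 2-fold higher and the 786 at least 2-fold lower in both pairs, purple points the 262 genes with counting intervals on opposite sides, and rings mark named genes. Most points lie along the diagonal, with Pmch at the upper right and Igfn1 at the lower left. For a gene with 0 UMIs in a library the ratio is drawn at its bound.

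Gene lists of brain regions and cell types fell in an order of their median ratio. Midbrain, hindbrain and nasal epithelium genes and the transcription factors of diencephalon and midbrain had the highest medians and cortical excitatory neurons the lowest. Each list is described by the edgeR calls of its members and by its median, to be read against the share of all genes called in that direction and the median of all genes. The edgeR calls quoted below were from a fit with 1 residual degree of freedom, and their p-values measure the spread between the pairs only.

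**Figure D2:**
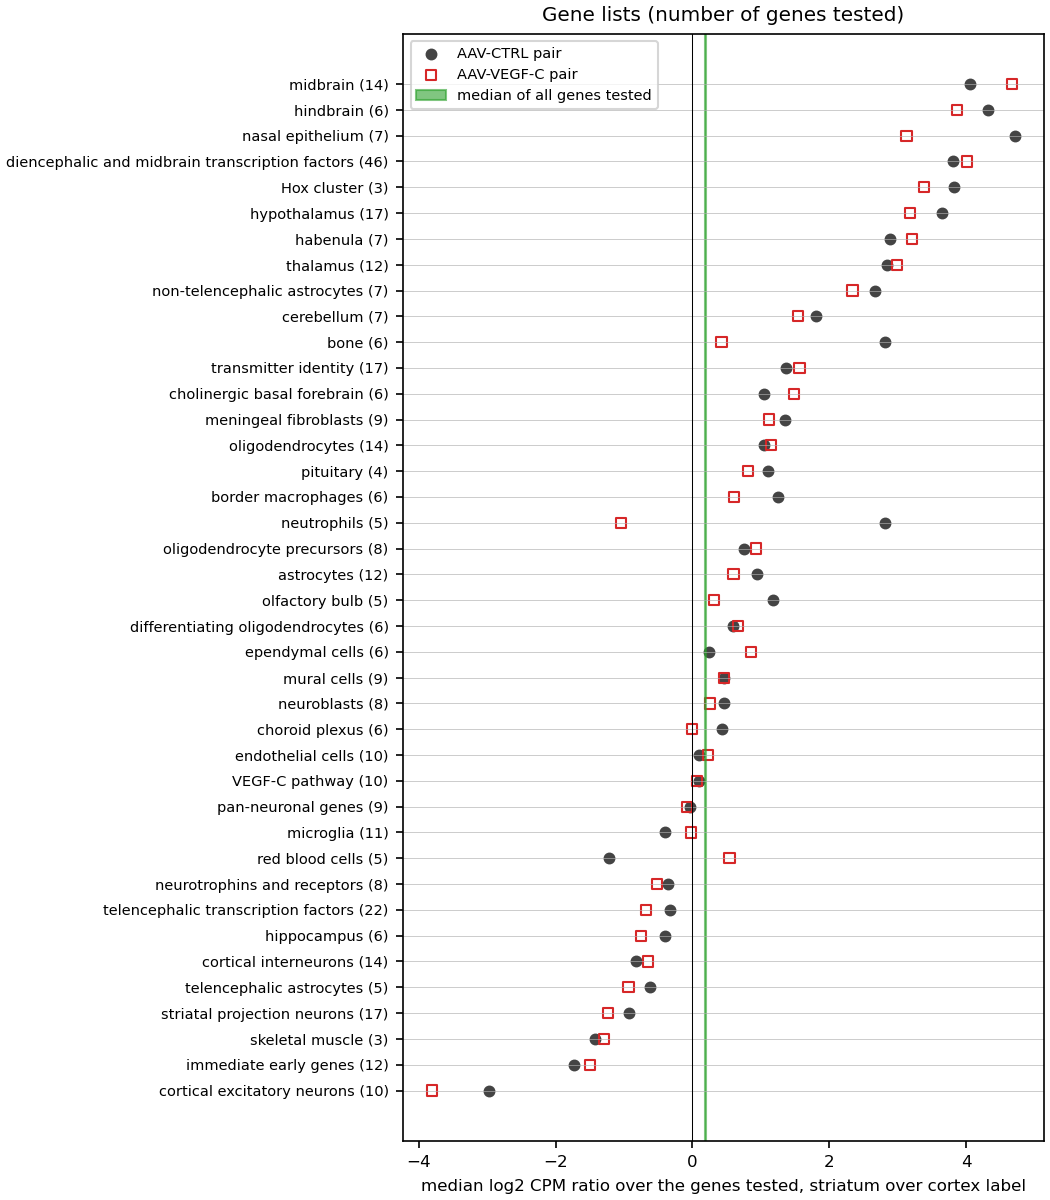
Median log2 ratio of CPM, striatum over cortex label, of the tested genes of each list, with the number tested in parentheses. Filled circles are the AAV-CTRL pair, open squares the AAV-VEGF-C pair, and the green line marks the median of all genes tested. The lists of cortical excitatory neurons, immediate early genes and striatal projection neurons lie left of 0 in both pairs, and neutrophil and red blood cell lists lie on opposite sides in the 2 pairs.

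Cortical excitatory neuron genes were lower in the striatum label. Of 10 genes, 9 were called lower and 0 higher, 8 were past the 2-fold rule, and the medians were -2.97 and -3.80 against 0.19 and 0.20 for all genes. Slc17a7 (ENSMUSG00000070570, chromosome 7, 45163949 to 45176142, plus strand, the vesicular glutamate transporter of cortical neurons) had levels of 415, 453, 56.8 and 41.0 CPM. Its log2 ratio was -2.87 (95% counting interval -2.92 to -2.82) and -3.47 (-3.52 to -3.41), with an adjusted p of 5.31e-07. Tbr1, a transcription factor of deep-layer neurons, had 37.6, 39.1, 3.30 and 1.77 CPM and was 11.4-fold and 22.1-fold lower. The striatum-labelled libraries were far below the cortex-labelled ones for both genes, and the AAV-VEGF-C library was the lower of the striatum-labelled pair. Neurod6 had 62.9, 64.4, 5.84 and 3.08 CPM and Emx1, a factor of the dorsal telencephalon, 9.45, 10.5, 0.841 and 0.546 CPM. Genes that other regions also use were less affected. Rorb, a nuclear receptor of layer 4 and of thalamic neurons, had 223, 237, 195 and 213 CPM and was called lower with an adjusted p of 0.0146. Cux2, an upper-layer factor, had 108, 98.5, 96.6 and 102 CPM, the libraries overlapped, and it was not called (adjusted p 0.417), although TMM scaling called it lower at an adjusted p of 0.00410.

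Among genes with a mean of at least 100 CPM in the cortex label, the largest differences in this direction included the following. Nrgn, a calmodulin-binding protein of dendrites, had 819, 906, 100.2 and 79.2 CPM and was 8.18-fold and 11.4-fold lower. Mef2c, an activity-regulated transcription factor, had 990.0, 1107, 201 and 201 CPM. Chrm1, the muscarinic receptor of the forebrain, had 99.8, 113, 18.3 and 15.8 CPM. In each of them the libraries of a label lay close together. The genes of this paragraph were picked by the size of their difference in both pairs, so labels that lie apart follow from the pick. Pdzrn3, a ubiquitin ligase family member, had 324, 298, 45.6 and 36.1 CPM. C1ql3, a secreted synaptic protein, had 175, 204, 33.3 and 44.8 CPM. Dkk3, a secreted protein of the Dickkopf family, had 152, 141, 32.6 and 28.5 CPM. For C1ql3 the striatum-labelled libraries were apart by more than the cortex-labelled ones in proportion. Among less abundant genes, Igfn1 had the largest difference lower in the striatum label, with 14.4, 15.4, 0.453 and 0.413 CPM, 31.7-fold and 37.2-fold lower. Ovol2, a zinc finger factor, had 14.8, 14.0, 0.854 and 0.561 CPM and Ccnb1, a cyclin, 13.6, 13.9, 1.28 and 1.31 CPM. For both the labels were far apart, as the pick requires. Trbc1, a T cell receptor constant region, had 2.80, 2.68, 0.194 and 0.103 CPM. Cd6, a T cell surface protein, had 2.50, 2.72, 0.246 and 0.221 CPM. Neither had more than 4 UMIs in any nucleus.

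Striatal projection neuron genes went against the region label. Of 17 genes, 15 were called lower in the striatum label and 1 higher, 8 were past the 2-fold rule in the lower direction, and the medians were -0.93 and -1.23. Summed over the 17 genes, the level was 2664, 2794, 1479 and 1421 CPM. Adora2a, the adenosine receptor of the indirect pathway, had 26.8, 32.1, 8.04 and 8.37 CPM and was 3.34-fold and 3.84-fold lower (adjusted p 6.75e-07). Penk, which encodes enkephalin, had 73.0, 81.3, 30.0 and 33.8 CPM. For these genes the highest striatum-labelled library was under the lowest cortex-labelled one by more than the gap within either label. Pde10a, the phosphodiesterase of striatal neurons and the most abundant of the list, had 1306, 1246, 686 and 686 CPM. Rasd2 had 45.9, 63.3, 21.0 and 24.7 CPM and Meis2, a homeobox factor of striatal and other neurons, 393, 405, 289 and 213 CPM. Tac1, the substance P precursor, which many regions use, had 49.2, 58.3, 49.6 and 60.4 CPM and was not called (adjusted p 0.601), while under TMM scaling it was called lower at an adjusted p of 0.0269. Isl1, a factor of direct-pathway neurons and also of the hypothalamus and cholinergic cells, was the only one of the 17 called higher, with 2.37, 2.73, 8.52 and 9.04 CPM. Nuclei rich in these RNAs were in the cortex-labelled libraries too. At least 10 UMIs of Rgs9, a regulator of dopamine signalling, were held by 40, 107, 13 and 14 nuclei, and at least 10 of Rarb, a retinoic acid receptor, by 238, 329, 145 and 102 nuclei.

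Genes of the thalamus were higher in the striatum label, all 12 of 12 called, 11 of them past the 2-fold rule, with medians of 2.85 and 2.98. Slc17a6 (ENSMUSG00000030500, chromosome 7, 51622006 to 51671119, plus strand), the vesicular glutamate transporter of the thalamus and brainstem, had 15.9, 15.9, 144 and 172 CPM. Its log2 ratio was 3.18 (95% counting interval 3.09 to 3.27) and 3.44 (3.36 to 3.53), with an adjusted p of 7.14e-08. Tcf7l2, a Wnt effector that marks thalamic neurons and also oligodendrocyte-lineage cells and astrocytes, had 44.9, 42.6, 297 and 333 CPM. Both genes were about level within a label and differed several-fold between labels, in the opposite sense to Slc17a7. Prkcd, a kinase of sensory relay nuclei, had 6.71, 7.83, 84.4 and 83.6 CPM and Calb2, a calcium-binding protein, 7.14, 6.68, 72.1 and 84.8 CPM. Ntng1, a netrin family member of thalamic axons, was the most abundant of the list past the 2-fold rule, with 163, 188, 655 and 816 CPM. Gbx2, a thalamic homeobox factor, had nearly all of its UMIs in the striatum label, with 2, 8, 344 and 460 UMIs. Rora, a nuclear receptor of the thalamus and of many other neurons, had 1426, 1384, 1763 and 1696 CPM and kept no call under TMM scaling (adjusted p 0.142). Lef1, a partner of Wnt signalling like Tcf7l2, had 28.5, 27.6, 137 and 154 CPM. Outside the list, Zfhx3, a large zinc finger and homeobox factor, had 110.1, 108, 609 and 665 CPM. Vav3, an exchange factor of small GTPases, had 53.2, 49.5, 226 and 240.2 CPM. The habenula, a small nucleus above the thalamus, was seen as well. Of its 7 genes, 7 were called higher with medians of 2.89 and 3.20, among them Pou4f1, a POU factor of medial habenula neurons, at 0.0950, 0.102, 5.94 and 5.44 CPM.

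Hypothalamic genes were higher in 16 of 17 tested and lower in 0, with medians of 3.65 and 3.17, and 1 of the 18 listed, Kiss1, was under the minimum. Pmch (ENSMUSG00000035383, chromosome 10, 88091072 to 88092375, plus strand), which encodes melanin-concentrating hormone, had 2, 2, 4452 and 9081 UMIs, or 0.0317, 0.0255, 57.6 and 134 CPM. Its log2 ratio, the largest of the genes ranked by the smaller pair, was 10.83 (95% counting interval 8.98 to 13.88) and 12.36 (10.50 to 15.40), with an adjusted p of 9.93e-09. The cortex-labelled libraries held next to none of it. Hcrt, the orexin gene of lateral hypothalamic neurons, had 0.697, 1.11, 21.1 and 42.6 CPM. Avp, which encodes vasopressin, had 0.966, 1.01, 48.9 and 57.3 CPM and Oxt, which encodes oxytocin, 0.317, 3.38, 126 and 83.2 CPM. Levels of these peptides also differed between the striatum-labelled libraries, Pmch and Hcrt being higher in the AAV-VEGF-C one and Oxt in the AAV-CTRL one. Part of each peptide came from few nuclei, while Pmch was counted in 1851 and 3306 and Hcrt in 994 and 1431 striatum-labelled nuclei. Barcodes with at least 10 UMIs of Pmch numbered 0, 0, 48 and 48 and held 45.5 and 56.0% of its UMIs in the striatum-labelled libraries. For Oxt they numbered 0, 1, 73 and 38, and the only such barcode of a cortex-labelled library carried 228 UMIs, 86.0% of all Oxt UMIs there. Hcrt had 0, 0, 15 and 21 such barcodes, which held 22.6 and 42.7% of its UMIs in the striatum-labelled libraries. Avp had 1, 1, 45 and 33, which held 51.8 and 45.9% there. The number of such nuclei differed between the striatum-labelled libraries in the direction of the level for Hcrt and Oxt. Cartpt, which encodes the CART peptide, had 7.63, 9.06, 34.1 and 56.9 CPM. Gal, which encodes galanin, had 0.364, 0.294, 8.65 and 14.1 CPM. Both were above the cortex label in each striatum-labelled library. Agrp, the appetite peptide of the arcuate nucleus, had 25.1, 25.1, 24.9 and 30.1 CPM in the 4 libraries and was not called, and its annotation overlaps that of Gm5914 on the same strand, so reads of the 2 may be shared.

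Midbrain and hindbrain genes were higher in the striatum label. All 14 of 14 midbrain genes were called higher, with medians of 4.05 and 4.67, as were 5 of 6 hindbrain genes tested, while the other 4 hindbrain genes were under the minimum of UMIs. Slc6a3 (ENSMUSG00000021609, chromosome 13, 73536747 to 73578672, plus strand), the dopamine transporter, had 9, 10, 1659 and 1619 UMIs and 0.142, 0.128, 21.5 and 23.9 CPM (adjusted p 6.49e-08). Th, the enzyme that makes dopa, had 0.887, 0.740, 7.60 and 9.97 CPM, and Slc18a2, the vesicular monoamine transporter, 5.65, 5.83, 38.1 and 39.8 CPM. Tph2, the serotonin enzyme of the raphe, had 0.728, 0.919, 9.36 and 12.9 CPM and Slc6a4, the serotonin transporter, 0.127, 0.0894, 6.85 and 9.44 CPM. None of these showed overlap between the labels. Barcodes with at least 10 UMIs were 0, 0, 16 and 26 for Slc6a3 and 0, 0, 11 and 17 for Tph2. Slc6a5, the glycine transporter of brainstem neurons, had 0.158, 0.0894, 5.09 and 4.49 CPM. The remaining hindbrain gene tested was called lower. In the Hox cluster, whose genes mark hindbrain and spinal levels, 3 of 39 genes reached the minimum and all 3 were called higher, at no more than 0.893 CPM. Cerebellar genes were higher in 6 of 7, at up to 9.70, 9.27, 23.1 and 21.5 CPM for Slc1a6, a glutamate transporter of Purkinje cells. Over the transmitter genes as a whole, 16 of 17 were called higher and 1, Slc17a7, lower. The GABA genes moved less, with Gad1 at 93.0, 93.7, 136 and 117 CPM and Slc32a1, the vesicular GABA transporter, at 57.7, 66.0, 113 and 115 CPM. Slc5a7, the choline transporter, had 5.40, 6.15, 14.2 and 16.9 CPM, and all 6 genes of cholinergic basal forebrain neurons were called higher, 3 of them past the 2-fold rule.

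**Figure D3:**
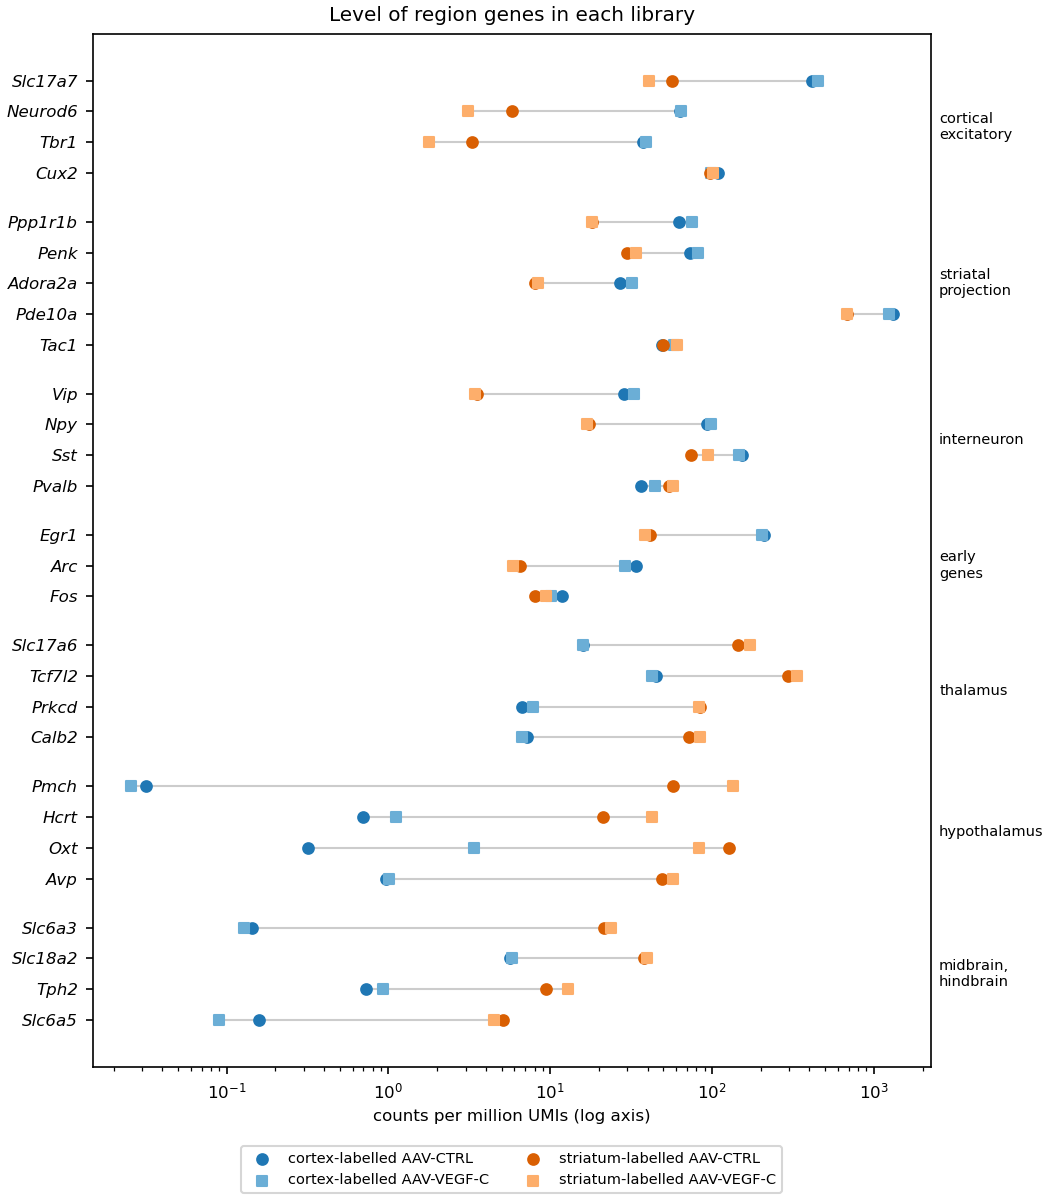
Levels of 28 region genes in the 4 libraries, in counts per 1000000 UMIs on a log axis, grouped by the list they belong to. Blue points are cortex-labelled and orange points striatum-labelled libraries, circles AAV-CTRL and squares AAV-VEGF-C. Blue lies right of orange for most cortical, striatal projection, interneuron and early genes, and left of it for every thalamic, hypothalamic, midbrain and hindbrain gene drawn, while Cux2, Tac1 and Fos lie close together.

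Transcription factors that keep the identity of forebrain compartments in the adult followed the same division. Of 46 diencephalic and midbrain factors tested of 47 listed, 46 were called higher in the striatum label and 43 were past the 2-fold rule, with medians of 3.80 and 4.01. Of 22 telencephalic factors tested of 23, 11 were called lower, 4 higher and 7 not at all, with medians of -0.33 and -0.68. Shox2, a homeobox factor, had 0.142, 0.345, 34.3 and 44.5 CPM, and its UMIs were spread over 2356 and 2455 striatum-labelled nuclei with no nucleus at 10 or more. Irx2, a factor of the Iroquois family, had 4, 6, 784 and 577 UMIs, and En1, the midbrain engrailed factor, 4, 5, 368 and 529. The cortex-labelled libraries thus held at most 27 UMIs of any of these 3 factors, against 368 to 3018 in the striatum-labelled ones. Zic1, a zinc finger factor of the septum and thalamus, was more abundant, with 12.9, 13.9, 101 and 111 CPM. Lhx9 had 1.68, 1.62, 18.7 and 21.5 CPM, Lhx1 0.253, 0.255, 11.3 and 13.0 CPM and Ebf3 1.90, 1.91, 40.2 and 33.3 CPM. Otx2, shared by midbrain, thalamus and choroid plexus, had 2.18, 2.73, 15.6 and 11.9 CPM. For Sox14, a factor of the thalamic and pretectal region, 2, 0, 204 and 176 UMIs were counted, and the fold in the AAV-VEGF-C pair is at least 67.8, taking 3 counts as the floor of the library at 0.

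Telencephalic factors did not share 1 direction. Bcl11a, a zinc finger factor, had 267, 242, 103 and 78.9 CPM and was 2.59-fold and 3.06-fold lower. Emx1, described above, differed by more. Bcl11b, a factor of deep-layer and striatal projection neurons, had 207, 208, 74.7 and 63.8 CPM. In both Bcl11 genes the labels did not overlap. Dlx factors of GABAergic lineages were nearer to level, while other members of the list from these lineages were called lower under both scalings. Dlx5 had 2.34, 2.69, 2.37 and 2.26 CPM and Dlx6 6.90, 7.80, 8.49 and 6.42 CPM, with overlapping libraries and no call. Dlx1 was called higher at 7.49, 7.09, 11.1 and 8.14 CPM, a call lost under TMM scaling (adjusted p 0.152). Six3, a factor of the rostral forebrain, septum and striatum, had 9.21, 12.3, 25.0 and 24.4 CPM and Sp8, found in olfactory bulb interneurons, 1.20, 1.01, 3.33 and 1.89 CPM, and both were called higher.

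**Figure D4:**
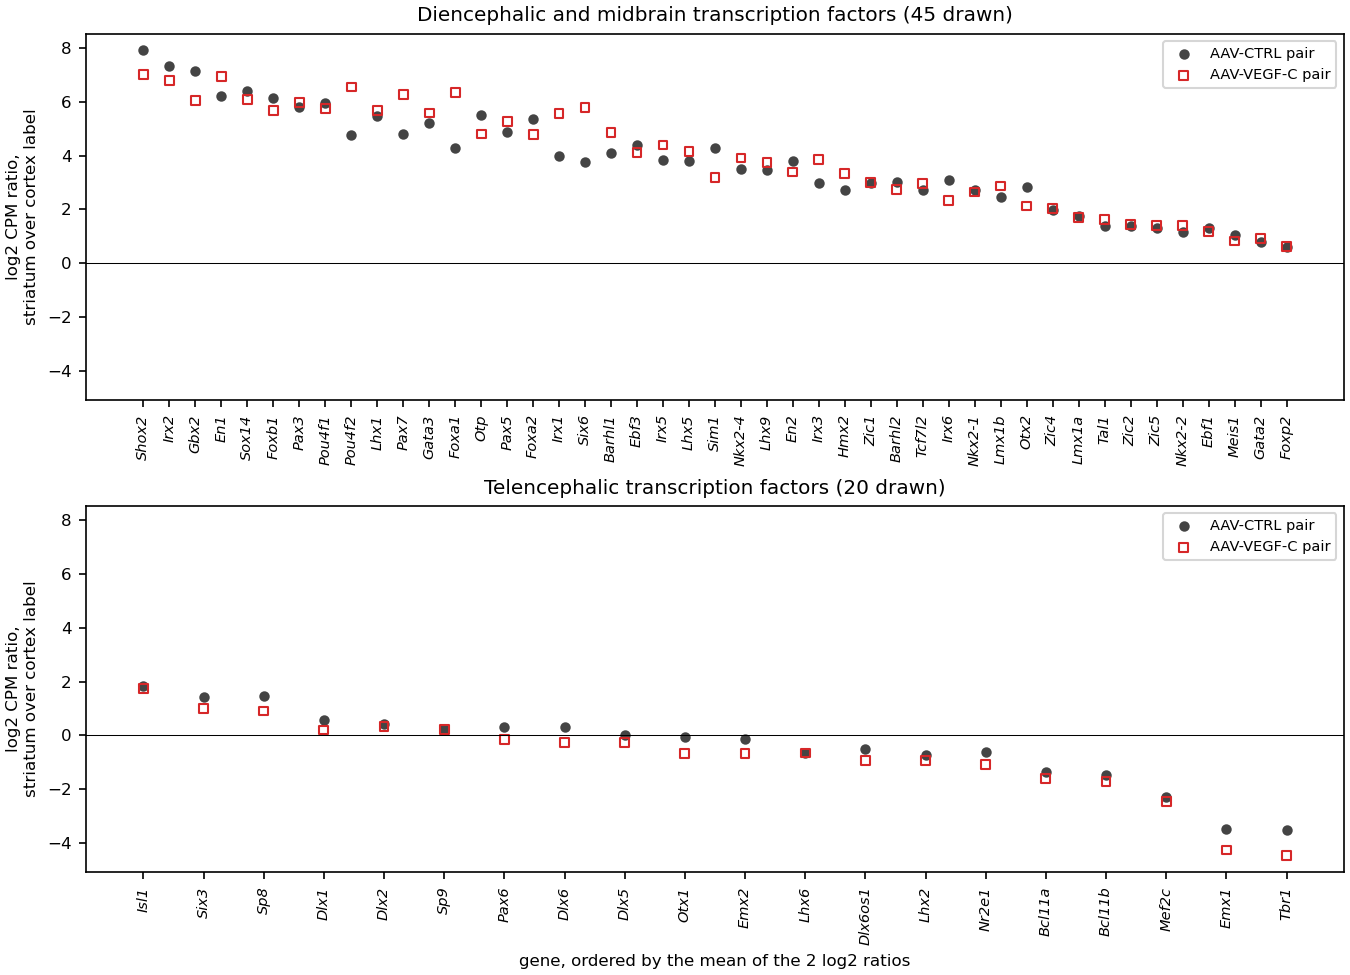
Log2 ratio of CPM, striatum over cortex label, of 45 of the 46 diencephalic and midbrain factors tested (upper panel) and 20 of the 22 telencephalic factors (lower panel), ordered by the mean of the pairs. Filled circles are the AAV-CTRL pair and open squares the AAV-VEGF-C pair, and genes with 0 UMIs in a cortex-labelled library are drawn at their bound. All 45 factors drawn in the upper panel lie above 0 in both pairs, and the lower panel runs from Isl1 above 0 to Tbr1 far below it.

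Cortical interneuron genes did not move together. Of 14 genes, 9 were called lower in the striatum label and 5 higher, with medians of -0.83 and -0.65. Lamp5 had 94.8, 98.9, 14.7 and 14.4 CPM, Npy, the neuropeptide of several interneuron classes, 92.6, 99.1, 17.4 and 16.9 CPM and Cck, also made by excitatory neurons, 328, 392, 104 and 121 CPM. Of these, Lamp5 was 6.45-fold and 6.85-fold lower and Cck 3.15-fold and 3.24-fold lower. Sst, which encodes somatostatin, had 153, 147, 73.6 and 94.0 CPM and was 2.07-fold and 1.57-fold lower. At least 10 UMIs of Sst were found in 174, 243, 61 and 97 nuclei. Cort, a peptide close to somatostatin, had 10.1, 13.4, 1.58 and 0.605 CPM. Pvalb, the calcium buffer of fast-spiking interneurons that many brainstem and thalamic neurons also make, had 36.1, 44.4, 54.3 and 57.4 CPM and was called higher. Adarb2 had 403, 422, 767 and 732 CPM and Sncg, common in brainstem and midbrain neurons, 1.46, 1.29, 9.67 and 10.9 CPM, the largest difference higher in the list.

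Immediate early genes, which neurons switch on within minutes of activity, were all called lower in the striatum label. All 12 of 12 were called, 10 of them past the 2-fold rule, with medians of -1.73 and -1.50. Egr1, a zinc finger factor, had 210.3, 204, 41.4 and 38.7 CPM and a log2 ratio of -2.34 (95% counting interval -2.40 to -2.29) and -2.40 (-2.46 to -2.34), with an adjusted p of 6.49e-08. Arc, a regulator of synaptic receptors, had 34.1, 29.1, 6.47 and 5.92 CPM and Egr3 68.0, 66.6, 8.44 and 6.83 CPM. Both labels were tight for these 3 genes and did not overlap. Nr4a1, an orphan nuclear receptor, had 67.9, 53.4, 19.8 and 18.8 CPM, Junb 43.5, 41.0, 15.0 and 15.4 CPM and Npas4 13.3, 14.3, 4.39 and 5.06 CPM. Fos was the least different, with 11.8, 10.1, 8.05 and 9.35 CPM and an adjusted p of 0.0373. Its log2 ratios were -0.55 and -0.11. The share of neuron-gated nuclei, given below, moved with the label, and its part in these differences was not tested.

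Promoter sequence is shown for 3 of these genes as background, and why the set moved in 1 direction was not tested. The letters TGACG, the core of the element to which CREB and related factors bind, were searched on both strands in the 250 bases before each RefSeq start site on GRCm38.p6. RefSeq entries matched 9 of the 12 genes, and 9 of 9 held the motif in at least 1 window, against 17.8% of 32851 windows and 19.8% of 27025 genes. Capitals mark the matches, written TGACG or, for the other strand, CGTCA. Arc, Egr1 and Egr3 had no entry. The windows are chr12:85473640-85473889 (plus strand) for Fos, chr15:101266596-101266845 (plus) for Nr4a1 and chr19:4989972-4990221 (minus) for Npas4, and each ends at the base before the start site.
Fos: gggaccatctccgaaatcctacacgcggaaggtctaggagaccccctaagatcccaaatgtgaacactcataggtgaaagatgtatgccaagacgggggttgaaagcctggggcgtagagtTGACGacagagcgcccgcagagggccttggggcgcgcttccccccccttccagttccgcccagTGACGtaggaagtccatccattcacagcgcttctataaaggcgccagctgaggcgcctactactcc
Nr4a1: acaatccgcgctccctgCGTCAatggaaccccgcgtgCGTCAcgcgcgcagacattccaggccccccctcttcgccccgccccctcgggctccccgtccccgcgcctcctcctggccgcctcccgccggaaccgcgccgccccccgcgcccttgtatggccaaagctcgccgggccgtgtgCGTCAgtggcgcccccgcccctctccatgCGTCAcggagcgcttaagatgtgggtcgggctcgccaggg
Npas4: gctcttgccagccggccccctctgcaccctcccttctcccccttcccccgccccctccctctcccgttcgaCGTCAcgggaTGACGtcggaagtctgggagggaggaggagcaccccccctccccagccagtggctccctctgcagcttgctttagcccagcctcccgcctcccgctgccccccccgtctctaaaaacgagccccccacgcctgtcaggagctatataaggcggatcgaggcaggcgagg
Fos, the gene of the 12 that differed least between the labels, held 2 matches, as did Npas4, and Nr4a1 held 4. The motif was chosen with these values known, and the other windows were not matched for base composition. A match is a run of letters and not evidence of binding.

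Pan-neuronal genes varied less than region genes. Syt1 had 2650.4, 2651, 1586 and 1542 CPM, although part of its annotation overlaps Gm5136, and Snap25, a vesicle fusion protein, 1171, 1102, 888 and 824 CPM. Rbfox3, which encodes NeuN, was the only one of 9 past the 2-fold rule, with 594, 569.6, 278 and 268 CPM. Map2 had 426, 417, 454 and 416 CPM and Nefm, a neurofilament of large projection neurons, 65.7, 72.1, 102 and 109 CPM. Of the 9 genes 4 were called lower and 3 higher. Nuclei assigned to neurons by these and similar markers (at least 4 UMIs from at least 2 genes and 3 times any other panel) made up 56.3, 56.6, 35.9 and 38.0% of nuclei, a share that leans on Rbfox3 and Syt1, which were themselves lower. Median oligodendrocyte panel counts in these nuclei were 1, 1, 3 and 4 UMIs, and those of the oligodendrocyte precursor panel 0, 0, 2 and 3. How far such glial RNA kept neurons out of the gate was not tested.

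RNA of region genes was also counted in nuclei that should lack it. Slc17a7 had a UMI in 74.3, 76.6, 18.4 and 15.9% of neuron-gated nuclei and in 49.9, 50.3, 7.83 and 6.97% of oligodendrocyte-gated nuclei, whose median depths were 4414 to 5379.5 and 1686.5 to 2066 UMIs. Thinned to 1000 UMIs per nucleus, the shares were 34.7, 37.1, 5.78 and 4.42% and 33.6, 34.4, 4.28 and 3.40%. At equal depth the background in oligodendrocytes was close to the neuronal share in every library, and thinning left out between 425 and 1537 nuclei of a library. The level of Slc17a7 was 422, 475, 61.0 and 44.0 CPM in neuron-gated and 411, 403, 44.6 and 34.2 CPM in oligodendrocyte-gated nuclei. Shares of nuclei with Slc17a7 are read as background, and its difference between labels is given for the libraries only. Nrgn, Egr1, Neurod6 and Ppp1r1b were higher in the oligodendrocyte gate than in the neuron gate of each library, apart from Neurod6 in the striatum-labelled AAV-CTRL library (5.69 against 5.41 CPM).

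For other region genes the neuron gate stood well above the oligodendrocyte gate. Ntng1 had 198, 228, 955 and 1161 CPM in neuron-gated and 43.8, 43.3, 166 and 201 CPM in oligodendrocyte-gated nuclei. Pde10a had 1609, 1504, 973 and 956 CPM against 181, 185, 107 and 108 CPM. Within neuron-gated nuclei Ntng1 and Pde10a kept the direction of the whole libraries. Tcf7l2 rested at 7.71, 8.59, 278 and 331 CPM in neuron-gated nuclei, at 162, 142, 272 and 302 CPM in oligodendrocyte-gated and at 272, 263, 467 and 502 CPM in astrocyte-gated nuclei, so that its contrast between labels was widest in neurons. At least 3 striatal projection genes were found in 21.4, 22.6, 8.81 and 9.17% of neuron-gated nuclei after thinning, against a background of 7.69, 8.48, 1.94 and 1.58% in oligodendrocyte-gated nuclei, and in 65.1, 67.9, 47.3 and 54.5% before thinning. The share was lower in the striatum label at equal depth.

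Oligodendrocyte-lineage genes and most astrocyte genes were called higher in the striatum label. All 14 of 14 oligodendrocyte genes were called higher, 10 of them past the 2-fold rule, with medians of 1.05 and 1.15. Mog, a protein of the myelin surface, had 64.9, 70.7, 130.4 and 159.6 CPM and was 2.01-fold and 2.26-fold higher. Prr5l had 108, 95.9, 294 and 279.9 CPM. The share of nuclei in the oligodendrocyte gate was 8.49, 8.70, 16.5 and 19.5%, so that it and the gene levels moved alike. All 8 of 8 precursor genes were called higher, 2 of them past the 2-fold rule, with medians of 0.75 and 0.92. Pdgfra, the precursor receptor, had 24.2, 22.8, 32.4 and 34.0 CPM. Of 12 astrocyte genes 9 were called higher and 1 lower, and under TMM scaling 8 and 3. Summed over the 12 genes, the level was 1757, 1861, 1840 and 1560 CPM, without a shared direction in the pairs. Aldoc, a glycolytic enzyme of astrocytes, had 39.3, 41.8, 93.0 and 87.1 CPM, Aqp4, the water channel, 40.1, 36.1, 101 and 63.8 CPM and Gfap, an intermediate filament, 26.7, 26.2, 70.6 and 37.3 CPM, the last apart between the striatum-labelled libraries. Slc1a2, the glutamate transporter that clears synapses and is densest in the telencephalon, had 998, 1094, 547 and 498 CPM. It was the gene called lower when scaled to total UMIs. Neat1, a nuclear RNA, had 61.8, 58.3, 142 and 136 CPM.

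Regional astrocyte genes differed between the labels within astrocyte-gated nuclei. Nuclei were gated on 8 astrocyte markers, which gave 1200, 1561, 2558 and 1604 nuclei, 6.99, 7.66, 10.8 and 9.18% of the libraries. Their UMIs were summed per library and fitted as before, and 1074 of 14007 genes were called higher (7.67%) and 1047 lower (7.47%). Without the cortex-labelled AAV-CTRL library 1655 were called higher. Free RNA is in these nuclei too. Genes picked by the size of their difference were therefore named only where the gate held at least 3 times the CPM of the remaining nuclei. This was asked of both libraries of the label where they were higher. Members of the gene lists were named without this filter. Genes of other cells moved with the label in this gate too: 9 of 10 cortical excitatory genes and 11 of 16 striatal projection genes were called lower and 8 of 12 thalamic genes higher.

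All 7 of 7 genes of non-telencephalic astrocytes were called higher within the gate. Agt (ENSMUSG00000031980, chromosome 8, 124556534 to 124569706, minus strand), the angiotensin precursor made by astrocytes behind the telencephalon, had 40.0, 49.8, 464 and 444 CPM and was 11.6-fold and 8.92-fold higher (adjusted p 4.71e-05). Slc6a11, a GABA transporter, had 319, 329.7, 1371 and 1353 CPM and Slc6a9, the glycine transporter, 39.6, 39.5, 173 and 211 CPM. Itih3 had 39.6, 54.0, 238 and 244 CPM. The 2 libraries of a label were close for each of them and the labels did not overlap. Igsf1 had 5.18, 2.73, 51.7 and 50.3 CPM, and Sfrp5, a secreted Wnt antagonist, 4.44, 5.46, 37.2 and 47.0 CPM. In the other direction, 5 of 5 telencephalic astrocyte genes were called lower. Lhx2, a LIM factor, had 41.8, 53.1, 16.3 and 13.9 CPM within the gate and Nr2e1, a nuclear receptor, 41.4, 43.1, 12.7 and 12.8 CPM. Mfge8, a secreted protein of forebrain astrocytes, had 418, 624, 222 and 227 CPM. These 3 genes kept the order of the labels in both pairs. Chrdl1, a BMP antagonist that astrocytes of the cortex secrete at synapses, had 45.5, 48.6, 6.87 and 4.25 CPM and was 6.62-fold and 11.4-fold lower. Gldc, the glycine cleavage enzyme, had 182, 199, 52.8 and 43.5 CPM. Thbs4, a thrombospondin, had 29.2, 38.9, 6.69 and 4.96 CPM. Slc1a2 was lower within the gate as well, at 6151, 7003, 3221 and 2936 CPM. So was Rorb, at 1132, 1299, 694 and 703 CPM, a level above that of the whole libraries.

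**Figure D5:**
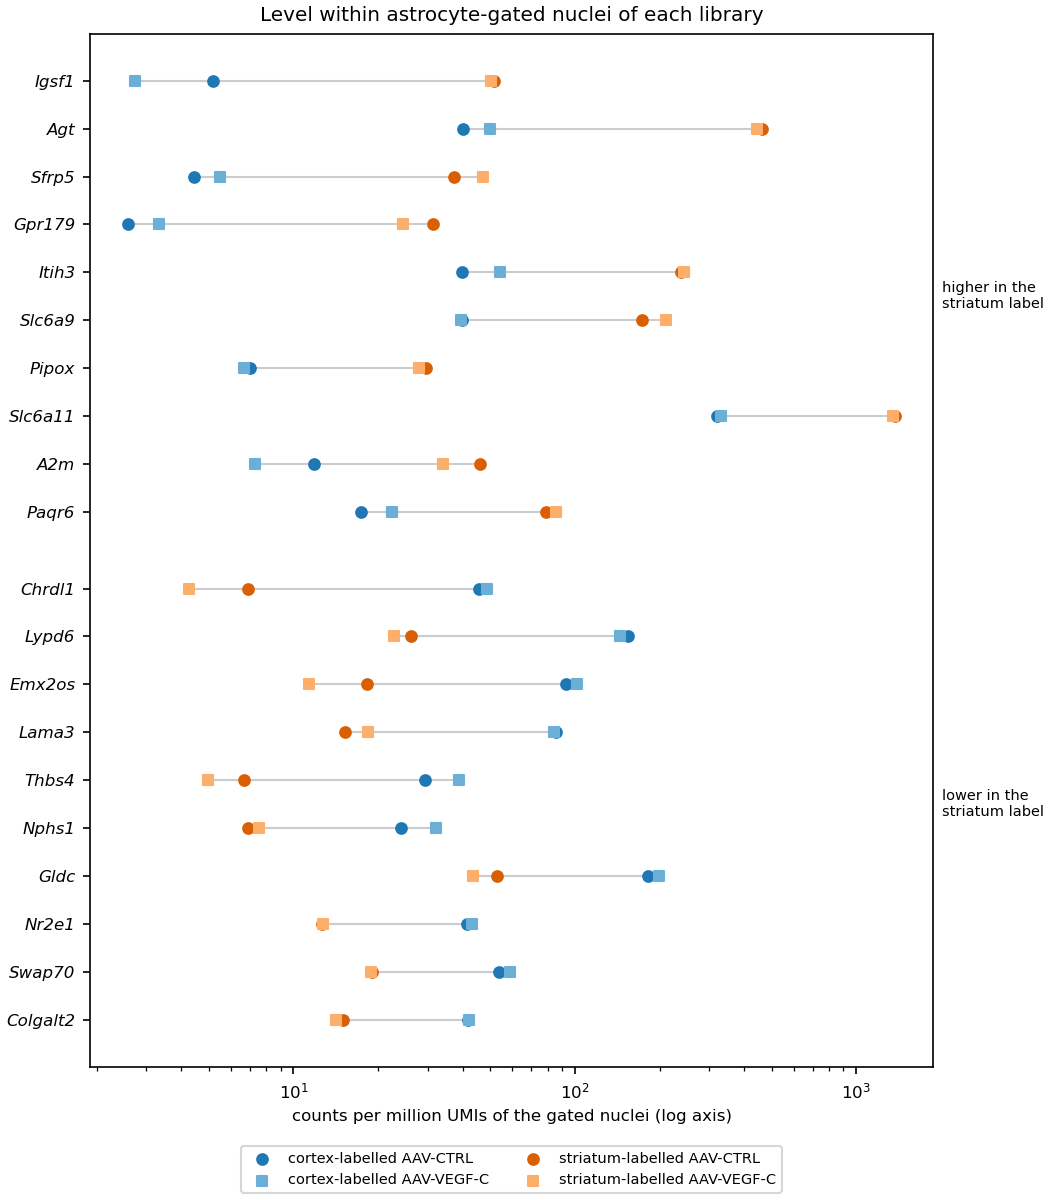
Levels within astrocyte-gated nuclei of the 10 genes with the largest differences in each direction among those at least 3-fold enriched in the gate, in counts per 1000000 UMIs of the gated nuclei on a log axis. Blue points are cortex-labelled and orange points striatum-labelled libraries, circles AAV-CTRL and squares AAV-VEGF-C. The 20 genes were picked by the size of their difference in both pairs, so labels that lie apart follow from the pick. Slc6a11 at 319 to 1371 CPM is the most abundant.

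Oligodendrocyte genes were near level between the labels within oligodendrocyte-gated nuclei. Of 14, 3 were called higher and 2 lower, with medians of 0.07 and 0.05, and of the 6 that did not serve as markers of the gate 1 was called higher and 1 lower. The gate held 1457, 1772, 3922 and 3400 nuclei, and 2142 of 13902 genes were called higher (15.4%) and 1471 lower (10.6%). TMM scaling gave 1511 and 1932, and the fit without the block for the pool of mice 1158 and 1017. Leaving out a library left 894 to 1675 higher and 863 to 1183 lower calls. Mog, a marker of the gate itself, had 935, 1034, 902 and 996 CPM and was not called. Pkd2l1, an ion channel, had 13.2, 15.0, 35.2 and 40.0 CPM and Slc7a15, an amino acid transporter family member, 11.7, 12.9, 25.6 and 28.7 CPM. Hapln2, a link protein of nodes of Ranvier, had 136, 119, 164 and 164 CPM and Opalin, a myelin protein, 358, 469.8, 302 and 376 CPM. All 12 thalamic genes were called higher in this gate as well and 9 of 10 cortical excitatory genes lower.

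Vascular and immune genes were described by their lists as well. Of 10 endothelial genes 5 were called higher and 0 lower, near the 41.8% of all genes called higher, against 14.5% called lower. Their medians were 0.10 and 0.23, close to the 0.19 and 0.20 of all genes. Under TMM scaling 2 were called higher and 2 lower. Cldn5, a tight junction protein of brain endothelium, had 90.7, 81.2, 95.7 and 91.6 CPM and Flt1, a VEGF receptor, 165, 133, 178 and 169.9 CPM. Of 9 mural genes 8 were called higher, and 6 under TMM scaling. Their medians were 0.47 and 0.46, and 0 were past the 2-fold rule. Rgs5 in pericytes had 74.5, 64.9, 103 and 88.5 CPM and Acta2 in smooth muscle 14.3, 17.5, 22.4 and 25.9 CPM. Microglia genes were called lower in 4 of 11 and higher in 1, and under TMM scaling in 9 and 1. C1qa, a complement gene, had 25.3, 28.7, 19.1 and 25.2 CPM and P2ry12, the purine receptor of resting microglia, 53.8, 51.3, 44.3 and 55.8 CPM. In both the lowest level was in the striatum-labelled AAV-CTRL library and the labels lay close or overlapped. Meningeal fibroblast genes were called higher in 8 of 9. Col1a2, a collagen of fibroblasts and bone, had 10.8, 9.52, 53.8 and 22.9 CPM and Dcn, a proteoglycan, 10.9, 12.1, 37.0 and 26.2 CPM, highest in the striatum-labelled AAV-CTRL library.

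The genes of the VEGF-C pathway did not share 1 direction between region labels. Of 10 genes 3 were called higher, 2 lower and 5 not. The medians were 0.10 and 0.06, and under TMM scaling the median turned below 0 with 2 higher and 3 lower calls. Vegfc, the gene that the AAV-VEGF-C virus carries, had 12.2, 11.6, 12.9 and 12.1 CPM, and it was not called between region labels (adjusted p 0.472). The paper reported more VEGF-C protein in cerebrospinal fluid and brain extracts with AAV-VEGF-C, and more Vegfc RNA in smooth muscle nuclei. Sums over a library do not resolve a rare cell type. Whether RNA made from the virus was counted as Vegfc was not tested. Flt4, its main receptor, had 3.89, 2.94, 4.32 and 3.79 CPM and Nrp2, a co-receptor, 66.1, 63.8, 103 and 99.5 CPM. Ccbe1 and Adamts3, which release the active form of VEGF-C, were both called lower, with 43.3, 40.1, 22.9 and 15.4 CPM and 60.0, 61.1, 39.7 and 34.2 CPM. Among neurotrophin genes 5 of 8 were called lower and 3 higher. Bdnf had 48.1, 43.5, 27.3 and 27.4 CPM and Ntrk2, its receptor, 798, 756, 547 and 529.6 CPM, both lower in the striatum label. Ngfr, the low-affinity receptor of cholinergic neurons, had 1.14, 1.44, 4.19 and 5.18 CPM and was higher.

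Nasal and bone genes were counted mainly in the striatum label and unevenly between its libraries, and muscle genes mainly in the cortex label. Cyp2g1, a cytochrome of the olfactory mucosa, had 0.111, 0.0383, 12.7 and 3.60 CPM, Cyp2a5 0.158, 0.191, 24.8 and 2.52 CPM and Omp, the olfactory marker protein whose annotation overlaps Capn5, 0.586, 0.383, 15.3 and 3.35 CPM. Of 7 nasal genes 6 were called higher and 1, Gng13, which the brain also uses, lower. The AAV-CTRL library of the striatum label held several times more than its AAV-VEGF-C counterpart, and 0, 0, 15 and 6 nuclei had at least 10 UMIs of Cyp2g1. Bglap, which encodes osteocalcin, had 8, 6, 345 and 13 UMIs, nearly all in the striatum-labelled AAV-CTRL library, and its log2 ratios were 5.14 and 1.32. Bglap2 had a log2 ratio of 5.19 and -1.21, which differ in sign, and was called higher all the same. Of 6 bone genes 5 were called higher. Of 4 pituitary genes 2 were called higher, Cga, a hormone subunit, having 0.0950, 0.153, 0.311 and 1.08 CPM. Of 3 skeletal muscle genes 2 were called lower, Acta1, an actin, having 8.63, 10.1, 3.21 and 4.13 CPM. In the hippocampus list 2 genes were called higher and 4 lower, in the olfactory bulb list 3 of 5 higher, in the neuroblast list 3 of 8 higher and 1 lower, in the ependymal list 4 of 6 higher, in the choroid plexus list 1 of 6, Otx2, higher, in the differentiating oligodendrocyte list 5 of 6 higher and 1 lower, and in the border macrophage list 5 of 6 higher. Of 4 genes that track nuclear RNA and RNA quality, 3 were called higher and Malat1 lower. These counts are read against 41.8% of all genes called higher and 14.5% lower, and several short lists lie near those shares. Under TMM scaling the neuroblast list had 2 higher and 2 lower calls and the ependymal list 3 and 0. The choroid plexus list then had 1 and 1 and the differentiating oligodendrocyte list 4 and 1.

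A few genes did not follow the label. Counting intervals lay on opposite sides in the pairs for 262 genes, 1.26% of those tested. Haemoglobin genes were among them, Hbb-bs having 680.4, 319, 293 and 574 CPM, high in the cortex-labelled AAV-CTRL and the striatum-labelled AAV-VEGF-C library and low in the other two. All 5 red blood cell genes were of this kind and none was called. Of 5 neutrophil genes 4 were of this kind and 1 was called higher, S100a8 having 0.332, 4.88, 8.45 and 1.80 CPM.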

How the data were processed

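Nuclei of cortical and striatal areas, pooled from 5 mice per virus, were profiled with the 10x Chromium 3' v3 kit. The authors deposited 1 table of UMI counts (whole numbers, not normalized) per library, made with Cell Ranger, version 5.0.1 per the file headers and 5.1.1 in the submitters' processing notes, on mm10. The annotation, the strand setting and the counting of introns are not given in the sources used here. The authors then clustered nuclei in Seurat, but no cell annotation was used here. All 78728 barcodes of the files entered, which is also the number of nuclei the study kept after taking out clusters it judged to be debris, multiplets or dead cells, and no doublet caller was run here. Libraries were mapped to groups by their labels.

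UMIs were summed per gene and library, and genes with at least 50 UMIs over the 4 libraries were tested in edgeR 4.0.16 (R 4.3.3) by quasi-likelihood with region label and AAV label as terms, total UMIs as library size and Benjamini-Hochberg adjustment over all genes tested. A call is an adjusted p under 0.05. The AAV label is the pool of mice, so the pairing comes from the design, and 1 residual degree of freedom remains. Nothing states separate cultures or further animals behind a library, so p-values measure the spread between these pairs only. The 2-fold rule asked for a CPM ratio of at least 2 in both pairs with each exact 95% binomial interval on that side of 1. Intervals and the floor of 3 counts cover counting error only. Totals of 63165470 to 78332657 UMIs set the precision.

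Nuclei were gated by at least 4 marker UMIs from at least 2 genes and 3 times every other marker panel, and shares were compared after thinning nuclei to 1000 UMIs. Genes were named from 41 lists (those the text describes), from the 12 largest in each direction by the smaller pair ratio with at least 200 UMIs, the same at 100 CPM or more, 5 opposite genes and 10 per direction in a gate. Predicted genes were not named, and 7 genes of the lists are not reported here and not drawn where single genes are shown by name. Members and lists were chosen with earlier results of these data known, and the threshold of 10 UMIs for a strongly labelled nucleus, the promoter motif and leaving libraries out of the gate fits were chosen after seeing the data. Coordinates are from GENCODE on GRCm38, matched by gene ID. Alternatives were TMM and DESeq2 1.42.0 size factors, the DESeq2 test, other minimums, no block, 1 pair alone and each library left out. Scripts were tested on simulated data. Python 3.11.15, scipy 1.17.1 and matplotlib 3.10.9 were used.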

Additional observations from a re-analysis of the deposited data

Results flagged for a closer look

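Counting intervals of the ratio lay on opposite sides of 1 in the pairs for 262 genes, of which the 5 picked by the naming rule are given, and the difference between the pairs was not tested. Mcpt8, a protease of basophils, had a log2 ratio of 3.71 in the AAV-CTRL pair, from 1, 36, 16 and 0 UMIs, and 32 of the 36 UMIs and 11 of the 16 were in 1 nucleus each. Prss34, a protease of basophils and mast cells, had 2.58 as a lower bound in the AAV-CTRL pair, from 0, 28, 22 and 0 UMIs, with 27 of the 28 in 1 nucleus. S100a8, a calcium-binding protein of neutrophils, had 4.67 in the AAV-CTRL pair and -1.44 in the AAV-VEGF-C pair, from 21, 382, 653 and 122 UMIs. Inmt, a methyltransferase, had 2.15 and -1.83, from 25, 37, 136 and 9 UMIs. Rhag, a red cell membrane protein, had 1.42 and -2.60, from 11, 14, 36 and 2 UMIs.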

How the results depend on the processing

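Higher calls numbered 8709 with total UMIs, 5153 with TMM scaling, 4984 with DESeq2 size factors and 3000 in the DESeq2 test, and lower calls 3019, 5061, 5047 and 3380. Under the 2-fold rule 1335 and 786 genes became 791 and 491 at a minimum of 500 UMIs, where fewer genes were tested. Leaving out 1 library in turn gave 5076 to 7640 higher and 2007 to 2924 lower calls. The low ends came without the cortex-labelled AAV-VEGF-C library, and 5478 higher calls were left without the cortex-labelled AAV-CTRL one. The lone library of a label was then assumed to vary like the other groups. Within astrocyte-gated nuclei the ranges were 807 to 1655 higher (main 1074), the upper end without the cortex-labelled AAV-CTRL library, and 834 to 1257 lower. Within oligodendrocyte-gated nuclei they were 894 to 1675 higher (main 2142) and 863 to 1183 lower (main 1471). Higher calls there were 1162 without the cortex-labelled AAV-CTRL, 894 without the cortex-labelled AAV-VEGF-C and 1064 without the striatum-labelled AAV-CTRL library, and lower calls 964 and 863 without the cortex-labelled AAV-CTRL and AAV-VEGF-C ones. These gate alternatives were added after seeing the data.

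Without the replicate block, 7693 genes were called higher and 2689 lower, and within oligodendrocyte-gated nuclei 1158 higher and 1017 lower. List medians of the mean of both pairs turned sign for endothelial cells (-0.014 with TMM, -0.018 with size factors) and the VEGF-C pathway (-0.11 and -0.12). The log2 ratio of Pdgfrb, a pericyte receptor, turned to -0.018 with TMM, -0.022 with size factors and -0.038 with equal weight per barcode, and that of Bglap2 from 5.19 in the AAV-CTRL pair alone to -1.21 in the AAV-VEGF-C pair alone. Causes of these changes were not tested. A count of genes opposite in the pairs cannot be had from 1 pair. Low counts limit what can be said of the Hox, pituitary and basophil genes.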
